A study of Mus musculus with 18 samples.

Results

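The Ugt1a locus encodes UDP-glucuronosyltransferases, and 7 of its genes were found by symbol among the 13384 genes of a lung mRNA table, every row whose gene name begins with Ugt1a. They were Ugt1a1, Ugt1a2, Ugt1a5, Ugt1a6a, Ugt1a6b, Ugt1a7c and Ugt1a9. Ugt1a1, Ugt1a2, Ugt1a5 and Ugt1a9 drew attention to the locus and were chosen by limma calls on these same libraries, as higher in the COPD model or lower after cell treatment, so the levels of all members are given as a description, with no test. Whole lung tissue of mice was profiled in 3 groups of 3 mRNA libraries each. Control mice received phosphate-buffered saline. Mice of the COPD model, a model of the smoking-related lung disease, were exposed to cigarette smoke, were injected intraperitoneally with an extract of it, and received saline. BMSC-treated mice were the same model given 4000000 BMSCs, mesenchymal stem cells by the series title, in 100 µl of saline through the tail vein. The sources used here state neither strain, age and sex nor whether separate mice gave the libraries. The p-values below therefore measure no more than the spread between libraries, which may be technical. Limma draws the spread of each gene toward that of genes of similar level. Its SEs and p-values can therefore rest on a smaller or larger spread than the gene's own libraries show. In bulk tissue, fewer cells of a type and less RNA per cell cannot be told apart.

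UDP-glucuronosyltransferases sit in the membrane of the endoplasmic reticulum and join glucuronic acid, taken from UDP-glucuronic acid, to small lipophilic molecules, which makes them soluble enough to be excreted. The Ugt1a genes are a single locus with many alternative starts. Each gene has its own promoter and its own opening exon, which encodes the part of the enzyme that binds the substrate, and all are spliced to the same closing exons, which encode the part that binds UDP-glucuronic acid. UGT1A1 is the enzyme that conjugates bilirubin, UGT1A6 enzymes favour planar phenols, and many members are known to be induced by planar aromatic hydrocarbons such as those in smoke through the aryl hydrocarbon receptor, and by electrophiles through NRF2.

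RefSeq places 9 Ugt1a genes of GRCm38.p6, the mm10 build named in the submitters' processing notes, on chromosome 1 between 88055411 and 88220002. Of these, 7 share the end at 88220002 and 2, Ugt1a6b and Ugt1a8, end at 88218998. The strand was plus for all but Ugt1a6b, for which it was not read here. From the far end of the locus the listed genes start in the order Ugt1a9 (88070779), Ugt1a7c (88095001), Ugt1a6b (88103257), Ugt1a6a (88134809), Ugt1a5 (88166012), Ugt1a2 (88200611) and Ugt1a1 (88211959). Because the closing exons are common to all of them, a read from those exons cannot be assigned to a gene by its sequence, and the division of the FPKM values (fragments scaled to transcript length and library size) among the members is uncertain. What tells the members apart is the region around each start, and the stretch from 250 bases before to 50 bases after the annotated start is therefore shown for Ugt1a5 (chr1:88165762-88166061), Ugt1a9 (chr1:88070529-88070828), Ugt1a1 (chr1:88211709-88212008) and Ugt1a6a (chr1:88134559-88134858), the windows of listed genes that held a match to a motif searched. All are on the plus strand of GRCm38.p6 and come from RefSeq, and capitals mark matches to the motifs described next.
Ugt1a5: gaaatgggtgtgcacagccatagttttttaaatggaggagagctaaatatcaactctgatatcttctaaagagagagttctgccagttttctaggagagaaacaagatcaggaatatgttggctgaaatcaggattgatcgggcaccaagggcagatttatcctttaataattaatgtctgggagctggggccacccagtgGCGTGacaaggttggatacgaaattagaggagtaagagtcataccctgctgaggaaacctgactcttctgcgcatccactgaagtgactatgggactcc
Ugt1a9: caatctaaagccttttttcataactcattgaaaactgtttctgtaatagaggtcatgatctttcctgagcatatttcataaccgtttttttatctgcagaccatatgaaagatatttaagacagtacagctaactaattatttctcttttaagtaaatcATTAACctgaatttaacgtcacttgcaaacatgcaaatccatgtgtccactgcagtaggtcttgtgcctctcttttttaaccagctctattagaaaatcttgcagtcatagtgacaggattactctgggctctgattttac
Ugt1a1: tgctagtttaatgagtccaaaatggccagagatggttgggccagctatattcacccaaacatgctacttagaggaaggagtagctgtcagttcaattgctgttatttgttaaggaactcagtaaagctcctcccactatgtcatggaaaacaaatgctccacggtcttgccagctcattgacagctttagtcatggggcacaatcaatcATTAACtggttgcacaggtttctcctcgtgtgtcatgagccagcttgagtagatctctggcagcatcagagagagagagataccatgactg
Ugt1a6a: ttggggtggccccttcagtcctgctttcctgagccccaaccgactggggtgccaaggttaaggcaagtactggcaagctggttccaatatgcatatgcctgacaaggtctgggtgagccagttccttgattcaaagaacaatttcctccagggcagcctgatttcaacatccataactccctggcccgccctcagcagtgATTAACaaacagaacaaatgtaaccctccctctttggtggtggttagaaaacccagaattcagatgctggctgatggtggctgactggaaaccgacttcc

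Windows of this length were matched for 6 of the 7 listed genes. They were searched on both strands for the xenobiotic response element core GCGTG, bound by the aryl hydrocarbon receptor, the antioxidant response element TGACNNNGC, bound by NRF2, the hepatocyte nuclear factor 1 core GTTAAT and the TATA box TATAAA. The core GCGTG was present in 1 of the 6, Ugt1a5, at positions -49 to -45 from the start, and in 32.4% of all 32851 promoter windows. The letters GTTAAT, on the opposite strand, were present in 3 of the 6, at -41 to -36 in Ugt1a1, -50 to -45 in Ugt1a6a and -91 to -86 in Ugt1a9, and in 7.10% of all windows. Matches to the antioxidant response element and to the TATA box were found in 0 of the 6, against 12.4% and 13.6% of all windows. No matches overlapped in the windows printed. A match describes the letters only. The lack of a match says nothing of sites outside these windows, and 6 windows are too few to tell 0 from shares of 12.4% or 13.6%.

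**Figure D1:**
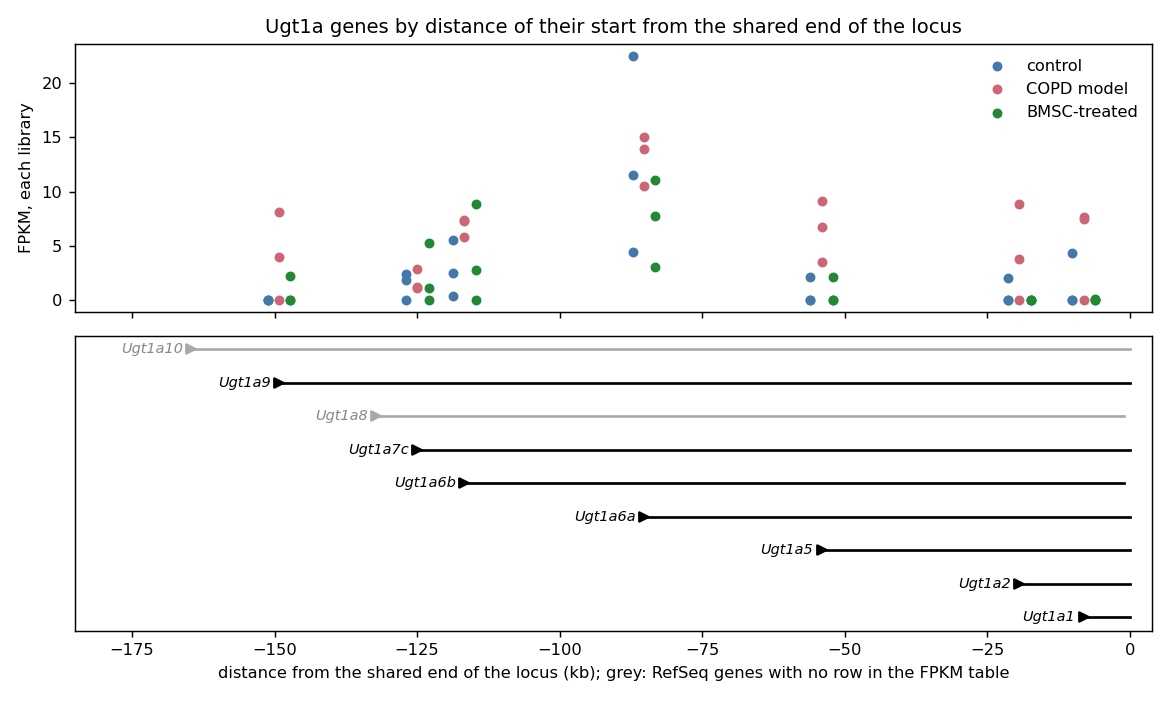
Upper panel: FPKM of each listed Ugt1a gene in each of the 9 mRNA libraries, coloured by group and offset slightly by group, placed at the distance of the gene's start from the shared end of the locus in kilobases. Lower panel: extent of the 9 RefSeq Ugt1a genes, with arrowheads at the starts. Ugt1a7c, Ugt1a6b and Ugt1a6a are neighbours in the middle of the locus, and Ugt1a6a holds the highest value of any library, 22.5 FPKM in a control library.

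The level of every gene in these libraries is tied to a few very abundant transcripts. The 13 listed mitochondrial genes held 46.9% to 89.3% of the summed FPKM in control libraries, 23.9% to 30.04% in COPD model libraries and 55.6% to 92.2% in BMSC-treated libraries, and Scgb1a1, the club cell secretoglobin, held 1.02% to 19.0%, 33.0% to 39.2% and 1.32% to 6.27%. Over the 11765 genes with at least 1 FPKM in at least 3 of the 9 libraries, which were fitted with limma on log2(FPKM + 1), the median log2 change was 0.66 from control to COPD model, -0.75 from COPD model to BMSC-treated and -0.10 from control to BMSC-treated. Control 1 and BMSC-treated 1 stood apart, with 1038 and 1193 genes listed at 0 against 107 to 201 in the other libraries. All 7 Ugt1a genes were among the 11765, but Ugt1a1, Ugt1a2 and Ugt1a9 reached 1 FPKM in only 3 libraries each, 2 of them of the COPD model, and so passed through the group in which they were high.

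Ugt1a6a, a phenol-conjugating member, was the most abundant gene of the locus and the only one above 0 in every library. Its level was 4.40, 11.5 and 22.5 FPKM in control libraries 1 to 3, 14.0, 15.0 and 10.5 FPKM in the COPD model and 3.04, 7.78 and 11.1 FPKM in BMSC-treated libraries. The 3 groups overlapped, and the highest value belonged to control 3. The log2 change of (FPKM + 1) was 0.27 ± 0.72 (SE) for COPD model against control and -0.90 ± 0.72 for BMSC-treated against COPD model, beside 0.66 and -0.75 over all genes.

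Ugt1a6b, a near relative of Ugt1a6a, stood at 0.330, 5.49 and 2.53 FPKM in control libraries, 7.25, 7.42 and 5.81 FPKM in the COPD model and 0, 2.77 and 8.86 FPKM in BMSC-treated libraries. All 3 COPD model libraries were above all control libraries, by a margin of 5.81 against 5.49 FPKM at the closest, while BMSC-treated 3 was above every other library. Its log2 change was 1.32 ± 0.65 (SE) for COPD model against control, and as Ugt1a6a and Ugt1a6b are near-identical copies the split of reads between them is uncertain.

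Ugt1a7c was the lowest of these neighbours. It stood at 0, 2.34 and 1.84 FPKM in control libraries, 1.21, 1.06 and 2.83 FPKM in the COPD model and 0, 1.07 and 5.25 FPKM in BMSC-treated libraries. The groups overlapped throughout, with log2 changes of 0.29 ± 0.49 (SE) for COPD model against control and -0.14 ± 0.49 for BMSC-treated against COPD model.

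Ugt1a5 had the clearest separation by group. It was listed at 0, 0 and 2.07 FPKM in control libraries, 9.12, 6.76 and 3.54 FPKM in COPD model libraries and 0, 2.14 and 0 FPKM in BMSC-treated libraries. The lowest COPD model library was above the highest library of either other group, and the 2 libraries outside the COPD model that held any, control 3 and BMSC-treated 2, were at nearly the same level. The log2 change was 2.29 ± 0.49 (SE) for COPD model against control and -2.28 ± 0.49 for BMSC-treated against COPD model, the values that chose this gene.

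Ugt1a1, the bilirubin-conjugating enzyme, was listed at 0, 0 and 4.35 FPKM in control libraries, 0, 7.45 and 7.69 FPKM in COPD model libraries and 0, 0 and 0.0814 FPKM in BMSC-treated libraries. Ugt1a2 was above 0 in the same control and COPD model libraries, at 0, 0 and 2.06 FPKM in control, 0, 8.82 and 3.75 FPKM in the COPD model and 0 in all 3 BMSC-treated libraries. Both were at 0 in COPD model 1, so that neither separated the COPD model from the other groups. The largest levels of either lay in COPD model 2 and 3, and control 3 held more of each than COPD model 1.

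Ugt1a9 took the opposite place to Ugt1a1 and Ugt1a2 in some libraries, though not in all. It was listed at 0 in all control libraries, at 8.08, 0 and 3.93 FPKM in COPD model libraries and 0, 2.21 and 0 FPKM in BMSC-treated libraries. COPD model 1, where Ugt1a1 and Ugt1a2 were at 0, held its highest level, and COPD model 2, where those genes were high, held none. In COPD model 3, however, Ugt1a1, Ugt1a2 and Ugt1a9 were all above 0, and in control 1, control 2 and BMSC-treated 1 all were at 0.

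**Figure D2:**
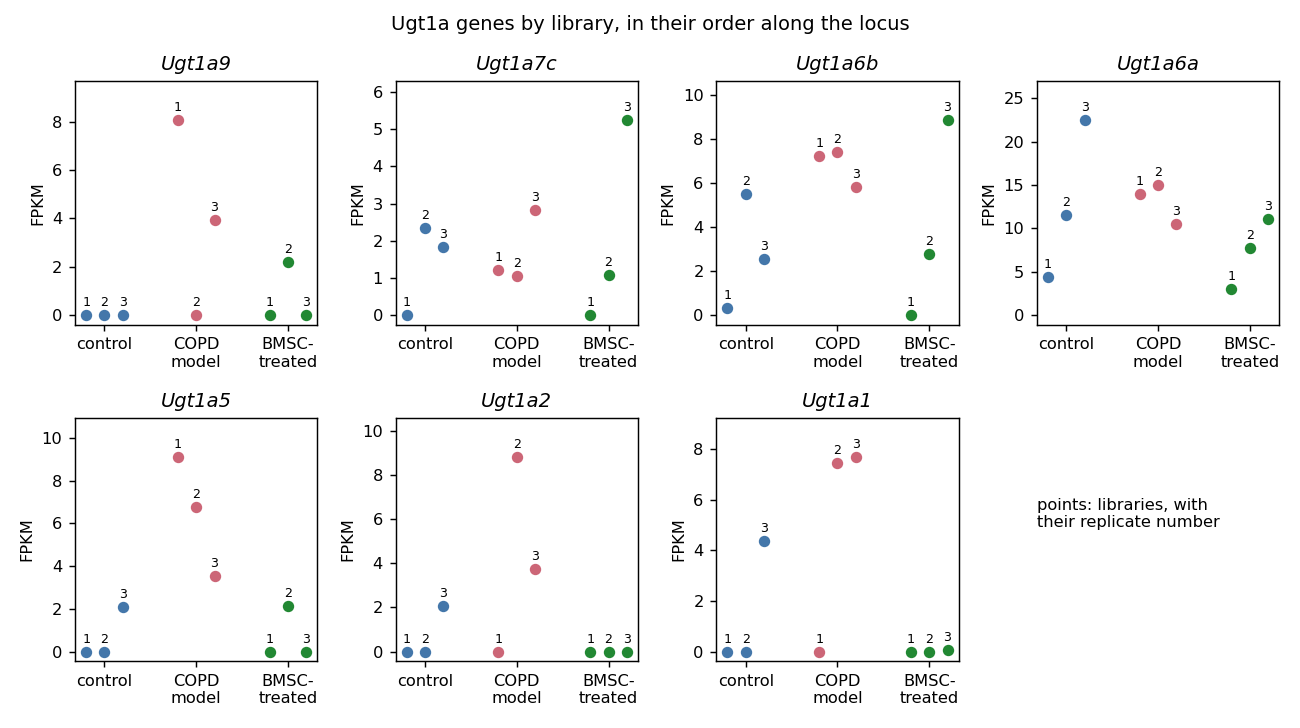
FPKM of the 7 listed Ugt1a genes, ordered by position along the locus, with 1 point per mRNA library and its replicate number. Only Ugt1a5 has all 3 COPD model libraries above both other groups, while Ugt1a1, Ugt1a2 and Ugt1a9 each have a COPD model library at 0.

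The number of members listed above 0 was 5, 6 and 7 in the COPD model libraries, 2, 3 and 6 in control and 1, 5 and 4 after BMSCs, in order of replicate. The groups did not overlap for 2 of the 7 genes in COPD model against control, Ugt1a5 and Ugt1a6b, both higher, where 23.7% of all genes tested were higher without overlap. For BMSC-treated against COPD model the count was 1 of 7, Ugt1a5, which was lower, beside 31.0% of all genes tested. Between BMSC-treated and control libraries all 7 overlapped, where 0.178% of genes were higher and 0.382% lower without overlap. By these counts alone the locus was near the background of the table. The limma calls that chose the members were 2 of 7 higher in COPD model against control, Ugt1a5 and Ugt1a9, where 0.0340% of genes were called higher, and 3 of 7 lower in BMSC-treated against COPD model, Ugt1a1, Ugt1a2 and Ugt1a5, where 0.0595% were called lower. Since these calls chose the locus, nothing is read from the difference. All Ugt1a calls were lost with log2(FPKM + 0.1), without the filter on low values, with rescaled FPKM, with a replicate block, without BMSC-treated 1, and without control 1 and BMSC-treated 1 together. Those against control were also lost without control 2, and those against the COPD model without BMSC-treated 3.

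Ugt1a1, Ugt1a2, Ugt1a5 and Ugt1a9 came and went between libraries to an extent that few genes of their level did. The calls that chose these genes rested in part on their low values outside the COPD model. The counts below are therefore a description only. Ugt1a5 was listed at 0 in 4 of the 9 libraries, Ugt1a1 in 5, and Ugt1a2 and Ugt1a9 in 6 each, against 2 for Ugt1a7c, 1 for Ugt1a6b and 0 for Ugt1a6a. Of the 5644 genes in the table whose highest library lay between 5 and 25 FPKM, a range that holds all 7 members and was set after their values were seen, 13 genes (0.230%) were listed at 0 in at least 4 libraries, and 4 of these 13 were Ugt1a1, Ugt1a2, Ugt1a5 and Ugt1a9. With control 1 and BMSC-treated 1 left out, the same genes were at 0 in 2 to 4 of the remaining 7 libraries, where 20 of the 5644 genes (0.354%) were at 0 in at least 2. Because closing exons are shared, a value of 0 here says that no FPKM was given to that gene, not that its transcript was absent.

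Within a library, those of Ugt1a1, Ugt1a2, Ugt1a5 and Ugt1a9 that were above 0 had nearly equal levels in several pairs. Such closeness was not particular to them. In COPD model 2, Ugt1a6b stood at 7.42 FPKM beside 7.45 for Ugt1a1, and in control 3, Ugt1a7c stood at 1.84 beside 2.06 for Ugt1a2. In control 3, Ugt1a2 and Ugt1a5 stood at 2.06 and 2.07 FPKM, a ratio of 0.996. In BMSC-treated 2, Ugt1a5 and Ugt1a9 stood at 2.14 and 2.21 FPKM, a ratio of 0.967. In COPD model 3, Ugt1a2, Ugt1a5 and Ugt1a9 lay at 3.75, 3.54 and 3.93 FPKM, so that members of quite different position in the locus differed by ratios of 0.9003 to 1.06. Ugt1a1 was the exception in 2 of these libraries, with a ratio to Ugt1a2 of 2.11 in control 3 and 2.05 in COPD model 3. In COPD model 2 the spread was wider, with 7.45 FPKM for Ugt1a1, 8.82 for Ugt1a2 and 6.76 for Ugt1a5, and in COPD model 1 the ratio of Ugt1a5 to Ugt1a9 was 1.13. How far shared exons set these levels was not tested.

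The 7 genes were also summed. Since the treatment of shared reads is not stated, a read may have counted for more than 1 member of this sum. The sum was 4.73, 19.4 and 35.4 FPKM in control libraries, 39.6, 46.5 and 38.1 FPKM in the COPD model and 3.04, 16.0 and 25.3 FPKM in BMSC-treated libraries. Every COPD model library was above every other library, but control 3, at 35.4 FPKM, was close to the lowest of them, at 38.1 FPKM, and the libraries that stood apart, control 1 and BMSC-treated 1, were the lowest of all. The mean was 19.8 ± 15.3 FPKM (SD, n = 3) in control, 41.4 ± 4.50 (SD, n = 3) in the COPD model and 14.8 ± 11.2 (SD, n = 3) after BMSCs. The COPD model was 2.09-fold above control with all libraries and 1.51-fold without control 1, and the BMSC-treated mean was 0.357 of the COPD model with all libraries and 0.498 without BMSC-treated 1. On the log2 scale the first ratio went from 1.06 to 1.78 without control 3, and the second from -1.49 to -2.12 without BMSC-treated 3.

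**Figure D3:**
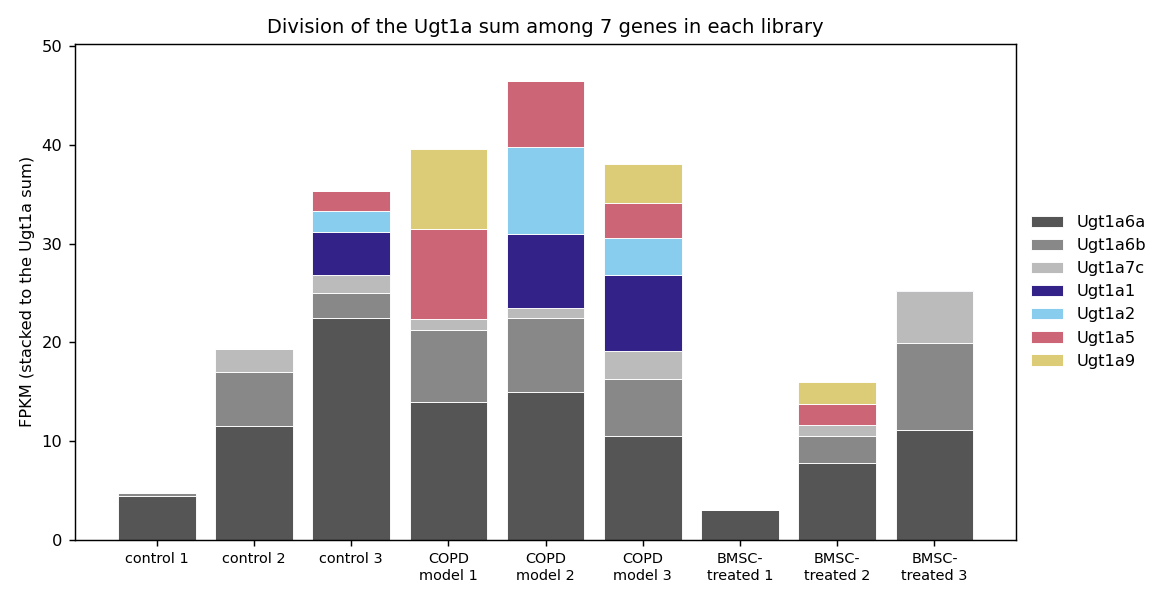
Summed FPKM of the 7 Ugt1a genes in each mRNA library, as bars from 0 divided by gene, with Ugt1a6a, Ugt1a6b and Ugt1a7c in greys and the other members in colours. The grey part reaches 22.4, 23.5 and 19.2 FPKM in the COPD model and 4.73, 19.4 and 26.9 FPKM in control, while the coloured part is tallest in the 3 COPD model libraries and is missing in control 1, control 2 and BMSC-treated 1.

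The sum was divided into the 4 genes chosen by the calls and the other 3, so that a difference between these parts was fixed by the choice. Ugt1a6a, Ugt1a6b and Ugt1a7c together gave 4.73, 19.4 and 26.9 FPKM in control libraries, 22.4, 23.5 and 19.2 FPKM in the COPD model and 3.04, 11.6 and 25.2 FPKM after BMSCs. These groups overlapped, and the COPD model was 1.28-fold above control with all libraries but 0.938 of it without control 1. Ugt1a1, Ugt1a2, Ugt1a5 and Ugt1a9 together gave 0, 0 and 8.49 FPKM in control, 17.2, 23.0 and 18.9 FPKM in the COPD model and 0, 4.34 and 0.0814 FPKM after BMSCs. No COPD model library was without them, although Ugt1a1, Ugt1a2 and Ugt1a9 each had 1 library of that group at 0. As a share of the Ugt1a sum, which does not depend on the scaling of a library, they made up 43.4%, 49.5% and 49.7% in the COPD model, 0%, 0% and 24.0% in control and 0%, 27.2% and 0.322% after BMSCs. The share was higher in each COPD model library than in any other library, which is a description, as these genes were chosen for being high there. Ugt1a6a held 35.2%, 32.3% and 27.6% of the sum in the COPD model, less than in any control library (59.5% to 93.0%) or BMSC-treated library (43.9% to 100%). This share is lowered by the chosen genes in the sum, and the mean level of Ugt1a6a itself was 13.2 FPKM in the COPD model and 12.8 in control.

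**Figure D4:**
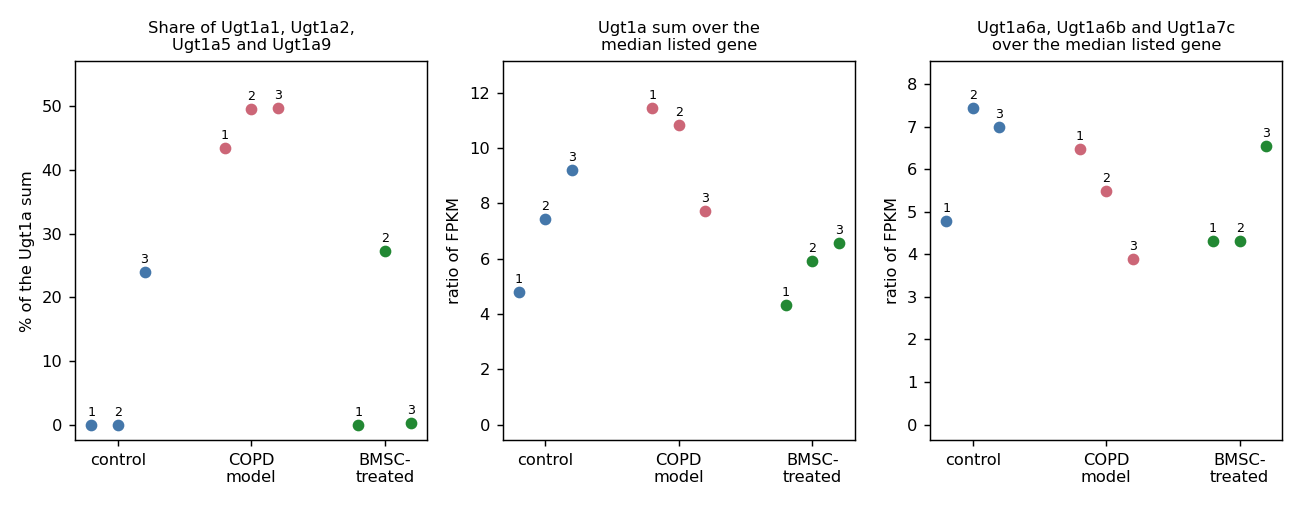
Left: share of the Ugt1a sum held by Ugt1a1, Ugt1a2, Ugt1a5 and Ugt1a9, in percent. Middle and right: the Ugt1a sum, and the sum of Ugt1a6a, Ugt1a6b and Ugt1a7c, each divided by the median FPKM of all listed genes in that library. Points are libraries with their replicate numbers. The share is 43.4% to 49.7% in the COPD model and at most 27.2% elsewhere, whereas in both other panels COPD model and control libraries overlap.

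Set against the other genes of the same library, the sum of the locus differed less between groups. Divided by the median FPKM of all listed genes, it was 4.79, 7.43 and 9.20 in control, 11.4, 10.8 and 7.71 in the COPD model and 4.31, 5.92 and 6.56 after BMSCs. COPD model and control libraries overlapped on this scale, with a ratio of means of 1.40, and BMSC-treated libraries lay below the COPD model without overlap, at 0.560 of its mean. The same ratio for Ugt1a6a, Ugt1a6b and Ugt1a7c was 6.40 ± 1.41 in control, 5.28 ± 1.31 in the COPD model and 5.06 ± 1.29 after BMSCs (SD, n = 3 each), with all groups overlapping. Every library was also rescaled so that its genes, Scgb1a1 and mitochondrial genes left aside, had the same total. The Ugt1a sum was then 1.53-fold higher in the COPD model than in control, with overlapping groups. After BMSCs the rescaled sum was 0.518 of the COPD model mean, without overlap.

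BMSC-treated and control lungs are set side by side here by replicate number. The labels do not say what a number marks, and the pairing was inferred from these same data. Across all genes, deviations correlated at 0.632 for number 1 and 0.497 for number 3. Control 1 and BMSC-treated 1 were also the libraries that stood apart. Control 2 correlated less with BMSC-treated 2 (0.194) than with BMSC-treated 3 (0.309), so the data did not pair number 2. The Ugt1a sum was 3.04 against 4.73 FPKM for number 1, 16.0 against 19.4 for number 2 and 25.3 against 35.4 for number 3. It was lower after BMSCs in 3 of 3 pairs, a count that rests on this assumed pairing. The difference between the group means, a log2 ratio of -0.42, was -0.41 with both libraries numbered 1 left out. Leaving out 1 library of a pair turned its sign for BMSC-treated 1 (0.06) and for control 3 (0.29).

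The enzymes and carriers around glucuronidation gave no call. Of 36 genes on 4 lists (supply of UDP-glucuronic acid, other UDP-glucuronosyltransferase families, the route from haem to bilirubin with deconjugation, and transporters of conjugates), 22 were listed and 21 tested. By limma with Benjamini-Hochberg adjustment 0 of 21 were called in COPD model against control, where 0.0340% of all genes were called higher and 0.0425% lower, and 1 had an unadjusted p under 0.05. For BMSC-treated against COPD model limma called 0 of 21, beside 0.0680% higher and 0.0595% lower, with 5 at an unadjusted p under 0.05. Over all 11765 genes, 775 and 1307 had an unadjusted p under 0.05 in these comparisons. The median log2 change of the 21 was 0.69 and -0.77 in these comparisons, next to 0.66 and -0.75 over all genes, and groups did not overlap for 5 of 21 (all higher) and 8 of 21 (all lower), beside 23.7% higher and 31.0% lower over all genes. Of the other UDP-glucuronosyltransferase families only Ugt8a, of 13 genes, was listed, at 0.374 to 1.18 FPKM, so the Ugt1a genes were the conjugating enzymes of this kind that the table held above 2 FPKM.

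Ugdh, which oxidises UDP-glucose to UDP-glucuronic acid, had 6.08 ± 1.88 FPKM (SD, n = 3) in the COPD model, 3.18 ± 2.35 in control and 3.68 ± 2.67 after BMSCs, a log2 change of 0.89 ± 0.64 (SE, adjusted p = 0.514, limma) against control. Hk2, a hexokinase at the head of the supply route, had 7.79 ± 1.29 FPKM in the COPD model against 3.35 ± 2.35 in control (adjusted p = 0.514, limma), with groups that did not overlap. Slc35d1, which carries UDP-glucuronic acid into the endoplasmic reticulum, stood at 0.672 to 1.81 FPKM over all libraries. Por, the reductase that passes electrons to haem oxygenase and to cytochromes P450, had 99.6 ± 22.4 FPKM in the COPD model, 42.2 ± 33.9 in control and 38.5 ± 32.4 after BMSCs, with log2 changes of 1.96 ± 0.84 (adjusted p = 0.514, limma) and -1.92 ± 0.84 (adjusted p = 0.375, limma). Hmox1, the inducible haem oxygenase that starts the route to bilirubin, had 21.0 ± 8.04 FPKM in the COPD model against 8.41 ± 5.20 in control and 5.88 ± 3.24 after BMSCs (adjusted p = 0.514 and 0.375, limma). Gusb, the beta-glucuronidase that removes glucuronic acid again, had 7.10 ± 1.14 FPKM against 3.92 ± 2.75 in control (adjusted p = 0.514, limma). Among the transporters, Abcc3, an exporter of glucuronides, had 12.3 ± 3.03 FPKM in the COPD model and 2.34 ± 1.62 after BMSCs, a log2 change of -2.11 ± 0.69 with groups that did not overlap (adjusted p = 0.375, limma), and Abcc1 had 3.896 ± 0.970 and 1.38 ± 0.924 FPKM (adjusted p = 0.375, limma). Both were named for the smallest unadjusted p of their list in COPD model against control. The median log2 change of the 6 tested transporters was 0.39 against control and -0.45 after BMSCs, smaller in size than the 0.66 and -0.75 over all genes.

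Regulators of the locus were read in the same way. Of 12 tested transcription factors and partners known to act on Ugt1a genes, limma called 0 in either comparison, with 2 and 3 at an unadjusted p under 0.05, beside 775 and 1307 of all 11765 genes. Their groups did not overlap for 4 of 12 (higher) and 8 of 12 (lower), beside 23.7% and 31.0% of all genes. The median log2 change of the 12 was 0.75 and -1.04, next to 0.66 and -0.75 over all genes. Ahr, the aryl hydrocarbon receptor, had 8.21 ± 2.36 FPKM in the COPD model and 6.54 ± 2.25 in control, with a log2 change of 0.30 ± 0.68 (SE), under the shift of all genes. Nfe2l2, which encodes NRF2, had 46.1 ± 11.1 FPKM against 21.4 ± 15.6 in control and 20.2 ± 12.8 after BMSCs (adjusted p = 0.514 and 0.375, limma). Mafg, a small partner of NRF2, was at 0, 4.27 and 13.0 FPKM in control, 14.8, 16.7 and 17.3 FPKM in the COPD model and 1.09, 7.48 and 8.88 FPKM after BMSCs, and Ppard, a nuclear receptor, had 3.89 ± 0.84 FPKM against 1.24 ± 1.01 in control and 1.43 ± 1.06 after BMSCs. For both, all COPD model libraries were above all others, and neither passed (adjusted p = 0.514 and 0.375 each, limma).

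Other targets of these regulators did not pass either. Of 5 tested aryl hydrocarbon receptor targets limma called 0 in either comparison (0 and 2 at an unadjusted p under 0.05), and of 11 NRF2 targets 0 (4 and 5), where 775 and 1307 of all 11765 genes reached that p. Cyp1a1, the classic target of the receptor, was at 0.903, 1.83 and 1.53 FPKM in control, 1.14, 2.84 and 9.43 FPKM in the COPD model and 0.140, 5.93 and 1.72 FPKM after BMSCs. COPD model 3 was far above the other 2 of its group. Cyp1b1, another target, had 5.70 ± 2.42 FPKM in the COPD model, 2.82 ± 2.51 in control and 1.32 ± 0.68 after BMSCs (adjusted p = 0.514 and 0.375, limma). Nqo1, a quinone reductase induced by both pathways, had 10.6 ± 5.26 FPKM against 3.91 ± 2.62 in control (adjusted p = 0.514, limma). Gsta2, a glutathione transferase, had 19.9 ± 7.32 FPKM in the COPD model, 7.91 ± 8.80 in control and 3.07 ± 2.38 after BMSCs (adjusted p = 0.514 and 0.211, limma), and its relative Gsta1 was at 0, 1.66 and 0.496 FPKM in control, 0.899, 3.70 and 3.44 FPKM in the COPD model and 0, 0 and 1.43 FPKM after BMSCs. The median log2 change for COPD model against control was 1.27 over the NRF2 targets and 1.07 over the receptor targets, next to 0.66 over all genes. Groups did not overlap for 3 of 11 NRF2 targets and 1 of 5 receptor targets (higher), beside 23.7% of all genes. For BMSC-treated against COPD model these counts were 6 of 11 and 2 of 5 (lower), beside 31.0% of all genes.

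**Figure D5:**
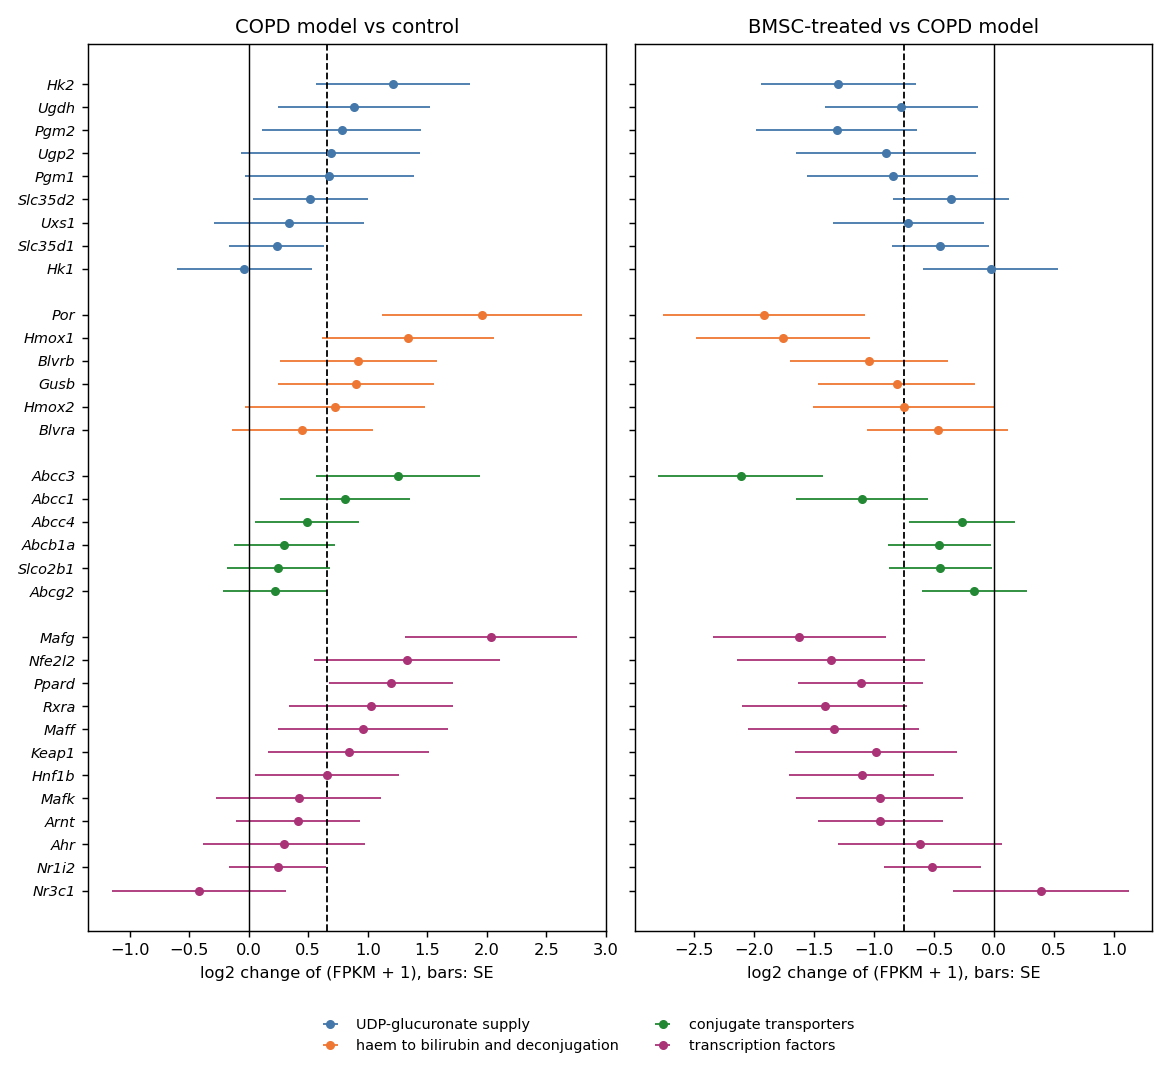
Log2 change of (FPKM + 1) with SE for tested genes of UDP-glucuronic acid supply, haem to bilirubin and deconjugation, conjugate transport and transcription factors known to act on Ugt1a genes, in COPD model against control (left) and BMSC-treated against COPD model (right). The dashed line is the median of all genes tested, 0.66 and -0.75, and the genes lie on both sides of it, with Mafg at 2.04 and Por at 1.96 farthest above it on the left.

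Genes next to the locus served to see whether its surroundings moved with it. Within 500 kb of its ends 9 genes other than the members were listed and 8 tested, and limma called 0 in either comparison, with 1 and 0 at an unadjusted p under 0.05, beside 775 and 1307 of all 11765 genes. Their median log2 change was 0.81 for COPD model against control and -0.75 for BMSC-treated against COPD model, next to 0.66 and -0.75 over all genes. Their groups did not overlap for 2 of 8 (higher) and 3 of 8 (lower), near the 23.7% and 31.0% of all genes. Usp40, a deubiquitinase gene and the nearest listed gene before the locus, had 2.27 ± 0.31 FPKM in the COPD model, 0.922 ± 0.424 in control and 1.01 ± 0.49 after BMSCs, without overlap (adjusted p = 0.514 and 0.375, limma). Hjurp, a centromere chaperone gene and the nearest after it, had 3.38 ± 0.37 FPKM against 1.86 ± 1.92 in control (adjusted p = 0.514, limma). Dnajb3, a chaperone gene nested in the locus, had 1.80 ± 1.18 FPKM against 1.18 ± 0.30 (adjusted p = 0.640, limma), with overlapping groups.

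Markers of the cells a lung piece can hold moved with the Ugt1a sum to different degrees. The 5 club cell markers, all listed, summed to 7015 to 105964 FPKM in control, 164578 to 257148 in the COPD model and 9692 to 37806.5 after BMSCs, mostly Scgb1a1. Of these 5, limma called 1, Scgb1a1, higher in COPD model against control and lower in BMSC-treated against COPD model. Over all genes 0.0340% and 0.0595% were called so. The SE of its log2 change was 0.37, while its control libraries alone ran from 6546 to 99536 FPKM. Limma called no gene in either comparison with log2(FPKM + 0.1) or rescaled FPKM, nor in BMSC-treated against COPD model without BMSC-treated 1. Cyp2f2, a cytochrome P450 of club cells, was at 284.5, 2320 and 3312 FPKM in control, 2920, 3115 and 3201 FPKM in the COPD model and 291.4, 1658 and 1890 FPKM after BMSCs, so that control 3 was above the COPD model. The 5 ciliated cell markers summed to 57.4 to 628.4 FPKM in control, 483.6 to 705.1 in the COPD model and 47.9 to 557.5 after BMSCs, and the 5 alveolar type 2 markers to 933.4 to 3075, 2799 to 4723 and 798.2 to 2235. These 3 lists were lowest in control 1 and BMSC-treated 1, as was the Ugt1a sum, and their part in its level was not tested. Markers of other tissues known for Ugt1a genes were also read. Of 6 hepatocyte markers 4 were listed, summing to 0.837 to 1.29 FPKM in control, 1.35 to 5.82 in the COPD model and 0.651 to 6.14 after BMSCs, with Alb at 3.72 FPKM at most and Apoa1 at 0 in control 1, control 2 and BMSC-treated 1, and of 5 enterocyte markers 0 were listed. The hepatocyte sum was highest in COPD model 1 and BMSC-treated 2, which were also libraries with Ugt1a9 above 0. BMSC-treated 3 came next, at 4.24 FPKM, but had Ugt1a9 at 0. COPD model 3 had Ugt1a9 at 3.93 FPKM and a hepatocyte sum of 1.63 FPKM. Of 8 markers of stratified and basal epithelium 2 were listed, and Krt5 was at 0 in every library but BMSC-treated 3, at 5.38 FPKM. In that library both summed to 14.1 FPKM, against 0.633 at most elsewhere, and Ugt1a6b and Ugt1a7c had their highest levels, 8.86 and 5.25 FPKM. The part of these markers in the Ugt1a levels was not tested. Alveolar macrophage markers, 4 of 4 listed, summed to 11.8 to 30.1 FPKM in control, 23.0 to 46.1 in the COPD model and 8.997 to 82.8 after BMSCs. Urothelial and mesothelial markers, 5 of 5 listed, summed to 2.94 to 20.9, 8.33 to 70.1 and 5.49 to 68.8 FPKM, highest in COPD model 3 and BMSC-treated 3. Of the 4 tested, limma called 1, Upk1a, lower in BMSC-treated against COPD model (adjusted p = 0.028), where 0.0595% of all genes were called lower. Upk1a was at 0 in every BMSC-treated library and at 1.72 to 3.22 FPKM in the COPD model. It passed the filter through that group and control 3 (4.05 FPKM). That call was also lost with log2(FPKM + 0.1) and with rescaled FPKM. The other tested members did not share this fall, with log2 changes of -0.30 for Upk1b, 0.41 for Upk3b and 0.86 for Msln.

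The genes whose level followed the Ugt1a sum most closely over the 9 libraries were Echs1, with Pearson's r = 0.999 on log2(FPKM + 1), Safb2 (r = 0.999), Il17rc (r = 0.998), Acot2 (r = 0.998) and Aig1 (r = 0.997). Echs1, an enzyme of mitochondrial fatty acid oxidation, was at 1.59, 4.02 and 5.88 FPKM in control, 6.62, 6.70 and 6.03 FPKM in the COPD model and 1.14, 3.71 and 4.86 FPKM after BMSCs. The most opposite were the mitochondrial mt-Atp8 (r = -0.913), mt-Cytb (r = -0.911) and mt-Atp6 (r = -0.910). All genes share the scaling of the same 9 libraries, and such values were common: the median r over the 11758 other genes tested was 0.909, and 6301 of them had an r over 0.9. The summed level of Ugt1a1, Ugt1a2, Ugt1a5 and Ugt1a9, a measure added after their values were seen, followed fewer genes, with a median r of 0.653 and 34 genes over 0.9.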

How the data were processed

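The authors deposited gene levels as FPKM, per the file headers, a unit that divides by transcript length and library size. The submitters' processing notes name FastQC, cutadapt, StringTie, Bowtie and mm10. Their versions and roles, and how reads in shared exons were treated, are not stated there. Libraries were made from 1.5 µg of RNA with poly(A) enrichment and a stranded kit, per the labels' protocols. The table gives no counts, so depth is unknown and no counting interval is given. Every listed gene had at least 1 group mean of 0.5003 FPKM or more. No value column was left unassigned and no libraries were identical. The tsRNA libraries were not used.

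Groups and replicate numbers came from the labels. log2(FPKM + 1) of the 11765 genes with at least 1 FPKM in at least 3 libraries was fitted with limma 3.58.1 (R 4.3.3, mean-variance trend, all 9 libraries), after a test on simulated data, and an adjusted p (Benjamini-Hochberg) under 0.05 made a call. Sums, shares, motifs and plots used Python 3.11.15, pandas 2.3.3, numpy 2.4.6 and matplotlib 3.10.9. The members and lists were chosen with earlier results of these data known. Named genes are all members, 2 of each list by smallest p in COPD model against control, Ugdh, Ahr, Nfe2l2, Cyp1a1, Nqo1, Hmox1 and Gusb, the nearest neighbours, and the 5 most and 3 least alike by correlation. Other genes (Slc35d1, Cyp2f2 and markers) were named after their values were seen.

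Numbers were taken to pair the control and BMSC-treated groups, where deviations correlated at 0.632, 0.194 and 0.497 for numbers 1 to 3. This pairing is an assumption, as control 2 correlated more with BMSC-treated 3 (0.309) than with its own number. Correlations with the same number of the COPD model were -0.171 to 0.178. Alternatives were another pseudocount, no filter, rescaled FPKM, a replicate block and leaving out libraries.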

Additional observations from a re-analysis of the deposited data

How the results depend on the processing

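The number of limma calls over all genes depended on the settings. It was 9 for COPD model against control and 15 for BMSC-treated against COPD model. These became 0 and 0 with log2(FPKM + 0.1), 1 and 6 without a filter, and 0 and 0 with rescaled FPKM. With a replicate block they were 17 and 34, and 0 for BMSC-treated against control as without the block. COPD model numbers did not pair with either other group, and libraries did not all correlate best with their own number, so the block is a hint there only. Without control 1 and BMSC-treated 1 they were 3 and 10, and BMSC-treated against control went from 0 to 6. With single libraries removed in turn there were 1 to 47, 0 to 35 and 0 to 2 calls in the 3 comparisons. Of the Ugt1a genes 0 were called in any comparison with the other pseudocount, without a filter, with rescaled FPKM, with the block or without control 1 and BMSC-treated 1, counts added after seeing the data. Leaving out single libraries gave 0 to 4 Ugt1a calls for COPD model against control and 0 to 3 for BMSC-treated against COPD model. The 4 were Ugt1a1, Ugt1a2, Ugt1a5 and Ugt1a9 without control 3. Calls of the glucuronidation lists stayed at 0 in all 12 alternatives of each comparison.

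The log2 ratio of the Ugt1a sum was 1.06 for COPD model over control, -1.49 for BMSC-treated over COPD model and -0.42 for BMSC-treated over control. When 1 library was left out, it ranged from 0.60 to 1.78 in the first comparison and from -2.12 to -1.005 in the second. With rescaled FPKM these ratios were 0.62 and -0.95. In all 9 alternatives of each, the ratio moved by less than the spread between libraries (SD of 1.06 and 1.14). That spread was about as large as the first ratio itself, so staying within it says little about how stable the ratio was. In the third the range was -1.06 to 0.29, with the sign turned without BMSC-treated 1 (0.06) and without control 3 (0.29), and -0.41 without both libraries numbered 1. The cause was not tested. An unknown depth limits what a level near 0 can show.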

Other observations

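Other conjugating enzymes of the lung, which join sulfate, glutathione or acetyl groups to foreign compounds or open epoxides, were looked at beside the Ugt1a genes. Of 12 on a list 10 were in the table and 8 tested, and limma called 0 in COPD model against control and 0 in BMSC-treated against COPD model, with 1 at an unadjusted p under 0.05 in each, beside 775 and 1307 of all 11765 genes. Ephx1, the microsomal epoxide hydrolase, had 117 ± 25.5 FPKM (SD, n = 3) in the COPD model, 53.8 ± 46.2 in control and 45.3 ± 33.3 after BMSCs (adjusted p = 0.514 and 0.375, limma). Sult1d1, a sulfotransferase, had 31.2 ± 9.83 FPKM in the COPD model, 19.2 ± 16.7 in control and 19.6 ± 19.8 after BMSCs (adjusted p = 0.514 and 0.375, limma).

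The values of Ugt1a1, Ugt1a2, Ugt1a5 and Ugt1a9 were written with at most 6 decimals in the deposited table, and those of Ugt1a6a, Ugt1a6b and Ugt1a7c with up to 9. Among the 5644 genes whose highest library lay between 5 and 25 FPKM, 818 had at most 6 decimals. Of the 13 of these genes that were at 0 in at least 4 libraries, 12 were among the 818. This was noticed after the values were seen, and what the number of decimals marks was not tested.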
